A study of Mus musculus with 2 samples.

Results

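Complement genes were followed through the dental pulp, the soft core of the tooth, in single-cell RNA-seq of C57BL/6 mice at postnatal day 12. The 8 members were taken by symbol from the 31053 genes of the deposited count tables: C1qa, C1qb, C1qc, C3, C4b, C3ar1, C5ar1 and Serping1. Of the 2 libraries, 1 came from endothelial Vegfr2 (Kdr) knockout mice and 1 from control mice, and both were made from cells that excluded propidium iodide. The Cre driver, the deleted exons, the alleles carried by the controls and the number of animals in each library are not given in the sources used here. With a single library per genotype nothing could be tested against replicates, and the 95% intervals given (exact) cover counting error only.

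Complement is a cascade of plasma and tissue proteins that tags targets for removal. In the classical pathway C1q, built from the products of C1qa, C1qb and C1qc, binds a target and carries the proteases C1r and C1s, which cleave C4 and C2 so that C3 can be cleaved in turn. The fragments C3a and C5a act through the receptors encoded by C3ar1 and C5ar1, and the product of Serping1, C1 inhibitor, blocks C1r, C1s and the MASP proteases. Tissue macrophages are a known source of C1q.

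The kept cells numbered 1679 in the knockout library and 2309 in the control library, with medians of 8293 and 12198 unique molecular identifiers (UMIs) per cell. The Cell Ranger version in the file headers was 6.0.1 for the knockout library and 5.0.0 for the control library, so genotype, library and software version cannot be told apart. Y-positive cells made up 33.9% of the sex-assigned cells of the knockout library and 16.1% of those of the control library. Cells were sorted into gates by markers that include no complement gene. The gates held 553 knockout and 531 control myeloid cells, 362 and 588 mesenchymal cells, 139 and 405 endothelial cells, 367 and 432 glial cells and 94 and 128 mural cells. The median cell had 84.6% of its own markers in the myeloid and mesenchymal gates, 91.7% in the endothelial gate and 75% in the glial gate, while macrophages (69.2%) and monocytes (62.5%) are subsets of the myeloid gate. Of 3660 gated cells, 3626 (99.1%) fell in a cluster of the same class. Kdr stood at 669 CPM (UMIs scaled to a fixed total for the gate) in knockout endothelial-gated cells and 1055 CPM in control endothelial-gated cells. The endothelial gate was 35 of 139 knockout and 55 of 405 control cells from cluster 13, 42 and 193 from cluster 15, which has Kdr among its 10 leading genes, and 62 and 156 from cluster 18. Within them the knockout over control ratio of Kdr was 0.312 (0.244 to 0.394), 0.826 (0.747 to 0.913) and 0.857 (0.723 to 1.01). Since the deleted exons are not known and the assay reads the 3′ end, this does not check the knockout.

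The 3 C1q genes lie side by side on the minus strand of chromosome 4 (GRCm38), C1qb at chr4:136880129-136886187, C1qc at chr4:136889804-136893065 and C1qa at chr4:136895917-136898803, with gaps of 3616 and 2851 bases. The other members lie apart on the minus strand, C3 at chr17:57203970-57228136, C4b at chr17:34728380-34743882, C3ar1 at chr6:122847138-122856161, C5ar1 at chr7:16246743-16259540 and Serping1 at chr2:84765387-84775444. The start regions of C1qb and C1qc are shown because these neighbours differed in opposite directions in macrophages, and that of C3 because it had another pattern among myeloid cells. They run from 250 bases before to 50 after the gene start (RefSeq, GRCm38.p6, minus strand) at chr4:136886151-136886450, chr4:136892865-136893164 and chr17:57228087-57228386. The RefSeq start of C1qc lies inside the gene span given above, so positions in its window are not counted from the upstream end of that span. Capitals mark matches on either strand to GAGGAA, a core letter string of ETS factors and PU.1, or to TTGCNNAA, a letter string of C/EBP factors.
C1qb: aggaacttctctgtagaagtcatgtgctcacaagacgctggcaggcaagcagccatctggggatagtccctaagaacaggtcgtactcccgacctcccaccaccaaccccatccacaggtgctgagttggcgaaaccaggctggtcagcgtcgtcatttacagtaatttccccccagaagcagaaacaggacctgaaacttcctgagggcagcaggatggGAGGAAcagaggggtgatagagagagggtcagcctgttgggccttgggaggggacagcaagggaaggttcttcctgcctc
C1qc: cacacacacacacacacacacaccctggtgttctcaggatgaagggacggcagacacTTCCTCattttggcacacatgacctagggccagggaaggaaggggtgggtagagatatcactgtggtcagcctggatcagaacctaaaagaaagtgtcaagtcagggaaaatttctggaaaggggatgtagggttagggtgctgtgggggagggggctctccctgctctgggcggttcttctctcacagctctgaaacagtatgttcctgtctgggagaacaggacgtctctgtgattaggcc
C3: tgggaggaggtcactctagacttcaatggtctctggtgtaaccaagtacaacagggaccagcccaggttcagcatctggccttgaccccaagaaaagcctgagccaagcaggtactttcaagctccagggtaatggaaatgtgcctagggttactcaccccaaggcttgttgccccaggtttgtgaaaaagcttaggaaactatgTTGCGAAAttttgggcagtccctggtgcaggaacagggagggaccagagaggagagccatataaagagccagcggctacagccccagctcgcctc
GAGGAA was found once in the C1qb window, at -30 from the start, once in the C1qc window on the other strand (printed as TTCCTC), at -193, and in 28.3% of all 32851 promoters of the same length. TTGCNNAA was found once in the C3 window, at -45, and in 10.8% of all promoters. These matches describe letters and do not show binding.

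The members divided between 3 kinds of cell. The C1q genes, C3 and both receptors were myeloid, Serping1 was mesenchymal and mural, and C4b was sparse, with most of its UMIs in glial cells. Myeloid-gated cells held 98.0% of C1qa, 97.2% of C1qb and 97.5% of C1qc UMIs in the knockout library, and 96.3%, 96.8% and 97.0% in the control library. Of Serping1 UMIs, mesenchymal-gated cells held 42.1% in the knockout and 55.6% in the control library, mural-gated cells 24.9% and 20.7%, and cells with both marker sets 27.2% and 20.2%. Glial-gated cells held 62.5% of knockout and 63.2% of control C4b UMIs.

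**Figure D1:**
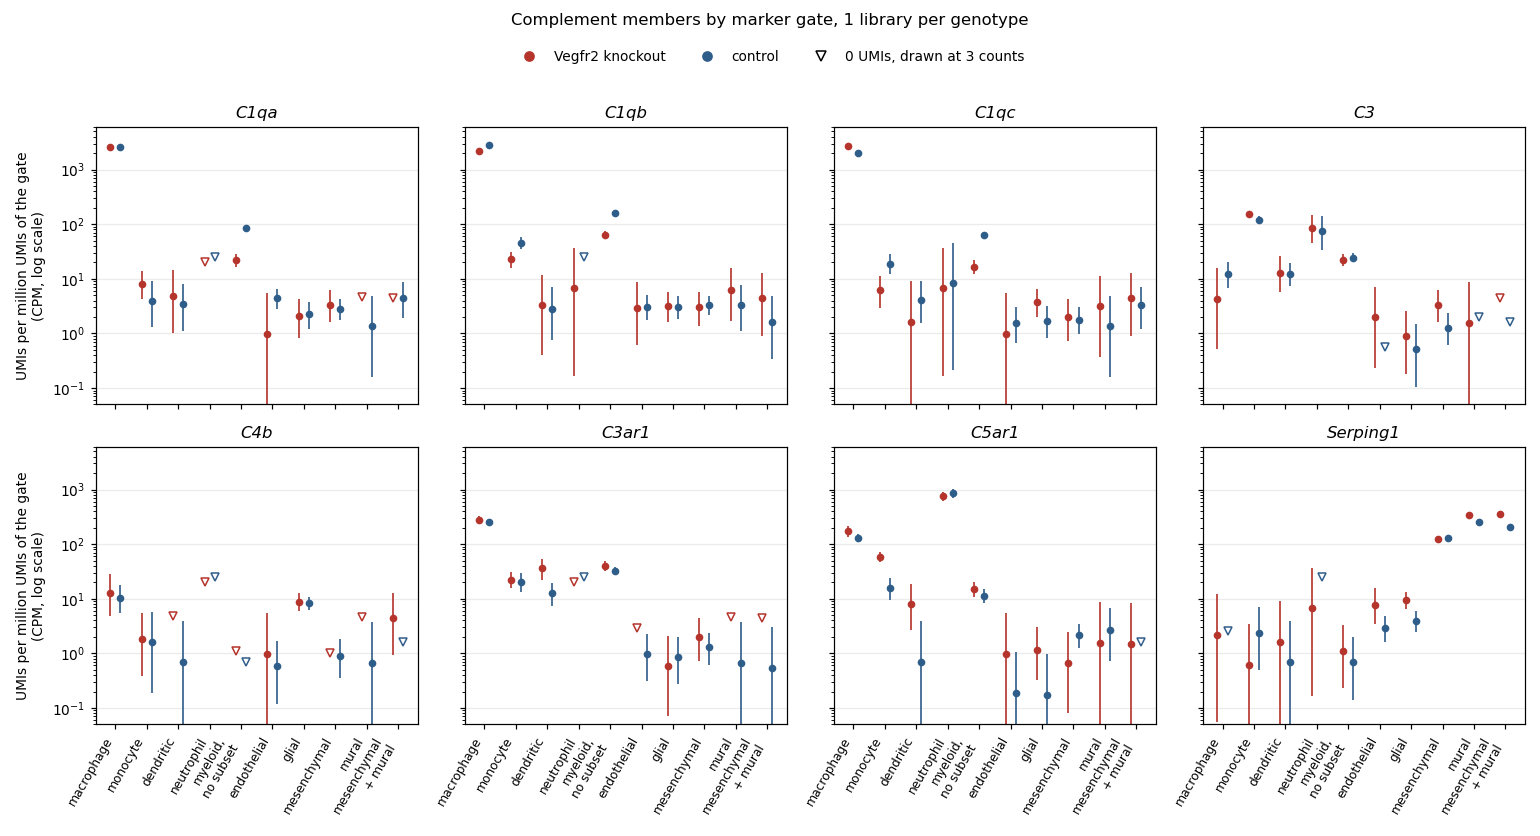
CPM of each gate (log scale) for the 8 members, Vegfr2 knockout left and control right, with exact 95% Poisson intervals that can run past the lower edge; open triangles mark 0 UMIs and are drawn at the level of 3 counts. The C1q genes stood between 2150 and 2682 CPM in knockout and between 2034 and 2791 CPM in control macrophage-gated cells, C5ar1 was highest in neutrophil-gated cells, and Serping1 was highest in mural-gated cells and cells with both mesenchymal and mural markers.

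C1q transcripts lay mainly in macrophages in both libraries. C1qa measured 2589 CPM (2444 to 2740) in 81 knockout macrophage-gated cells and 2600 CPM (2508 to 2695) in 98 control cells. C1qb measured 2150 CPM in knockout and 2791 CPM in control macrophages. C1qc measured 2682 CPM in knockout and 2034 CPM in control macrophages. Summed over the subunits, the level was 7421 CPM in knockout and 7425 CPM in control macrophages, a knockout over control ratio of 0.999 (0.960 to 1.04). The ratio was 0.996 (0.930 to 1.07) for C1qa, 0.770 (0.717 to 0.827) for C1qb and 1.32 (1.23 to 1.41) for C1qc. The total was thus near equal while C1qb was lower and C1qc higher in the knockout library, beyond counting error. A member was counted where both libraries together gave 20 or more UMIs, and 0 of the 5 counted in this gate passed a 1.5-fold difference, against 34.1% of all 7700 genes counted there.

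Within single macrophages the same tilt was visible. The per-cell median of C1qb was 16.9 UMIs per 10000 in knockout cells and 24.6 in control cells, and that of C1qc was 25.8 in knockout cells and 22.2 in control cells. C1qa had per-cell medians of 21.8 in knockout and 25.8 in control cells. All 3 subunits were seen together in 76 of 81 knockout and 94 of 98 control macrophages, so both libraries held few cells with an incomplete set. C1qb made up 29.0% (27.5 to 30.5) of C1q UMIs in knockout macrophages and 37.6% (36.6 to 38.6) in control macrophages. C1qc made up 36.1% (34.5 to 37.8) in knockout and 27.4% (26.4 to 28.4) in control macrophages. The C1qa share was alike, 34.9% in knockout and 35.0% in control macrophages. Capture differs between 3′ ends, so shares are set against each other only between libraries.

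The macrophage gate drew on different clusters in the 2 libraries. Cluster 1, led by Lyve1, Pf4 and Folr2, held 71 of 81 knockout and 62 of 98 control macrophage-gated cells, and cluster 5, led by F10, Apoc1 and Lyz2 with the monocyte gene Ly6c2 among its 10 leading genes, held 8 of 81 and 29 of 98. Cluster 5 matched the monocyte list best, so 29 of 98 control macrophage-gated cells sat in a monocyte-like cluster. In cluster 1 alone, C1qa was 2626 CPM in knockout and 3374 CPM in control cells, C1qb was 2029 and 2811 CPM, and C1qc was 2862 and 2884 CPM. There the ratio was 0.778 for C1qa, 0.722 for C1qb and 0.992 for C1qc, and the summed ratio was 0.829 (0.791 to 0.869). In macrophage-gated cells of cluster 5 the ratio was 1.24 (1.04 to 1.47) for C1qa, 0.917 (0.781 to 1.07) for C1qb, 1.41 (1.15 to 1.72) for C1qc and 1.12 (1.01 to 1.24) for the sum. In cluster 6, with 2 knockout and 6 control macrophage-gated cells, C1qc had a ratio of 1.60 (1.202 to 2.11). The C1qc ratio was thus above 1 in clusters 5 and 6, which held few knockout cells, and near 1 in cluster 1. The C1qb ratio was below 1 in each. In control macrophage-gated cells C1qc was 2884 CPM in cluster 1 but 1192 CPM in cluster 5, so the C1qc ratio of the whole gate also follows the mix of clusters. The C1qb share in cluster 1 was 27.0% in knockout and 31.0% in control cells. In macrophage-gated cells of cluster 5 the C1qb share was 39.1% of 463 UMIs in knockout and 47.8% of 2767 UMIs in control cells. Among macrophage-gated cells the C1qb share was thus lower in the knockout in both clusters, though cluster 5 gave only 8 knockout cells. The share was higher in cluster 5 than in cluster 1 in each library. Over all cells of cluster 5, whatever their gate, it was 49.7% of 761 knockout and 49.4% of 3893 control UMIs. In myeloid cells that fitted no subset it was 62.7% (56.8 to 68.4) in knockout and 51.5% (48.8 to 54.2) in control cells. In monocyte-gated cells it was 61.7% of 60 knockout and 66.7% of 87 control UMIs.

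Other genes differed in this gate. The 13 macrophage markers summed to 30735 CPM in knockout and 25415 CPM in control macrophages, with 5 higher and 3 lower past 1.5-fold, beside 21.9% of all genes higher and 12.2% lower in this gate. The monocyte marker list summed to 342 CPM in knockout and 1274 CPM in control macrophages, and its member Ccr2 to 147 and 621 CPM. Cd163, a scavenger receptor, was 654 CPM in knockout and 199 CPM in control macrophages, and Folr2, a folate receptor of tissue macrophages, was 271 and 124 CPM. Cbr2, among the macrophage markers that were lower, was 71.4 CPM in knockout and 185 CPM in control macrophages. Of 12 interferon response genes, 0 were higher and 8 lower past 1.5-fold, at 797 CPM in knockout and 1463 CPM in control macrophages in sum. Median depth was 5045 UMIs in knockout and 9439 in control macrophages. The part of these in the C1q result was not tested.

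**Figure D2:**
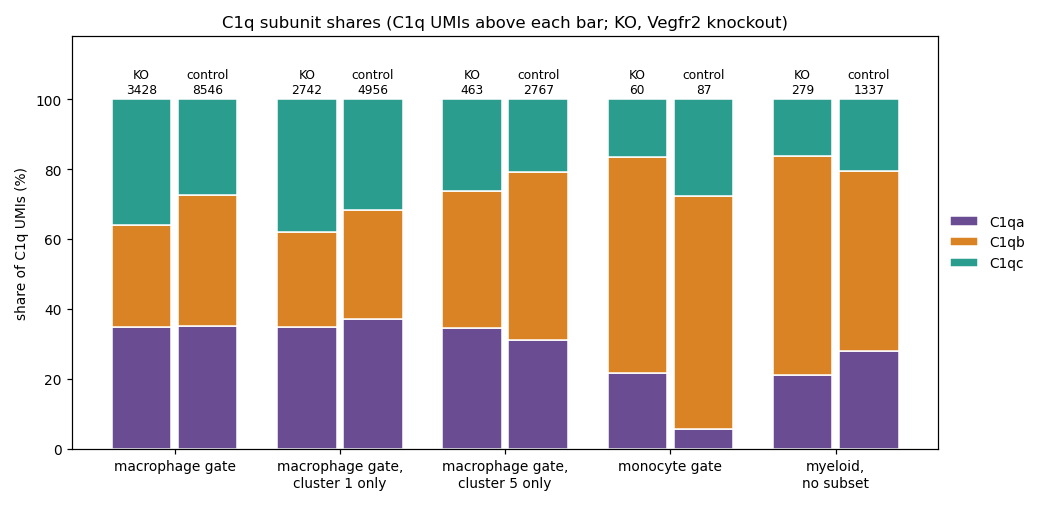
Share of C1q UMIs (%) from C1qa, C1qb and C1qc in myeloid gates and in 2 clusters of the macrophage gate, Vegfr2 knockout (KO) left and control right, with the number of C1q UMIs above each bar. The C1qb band is thinner in knockout macrophages (29.0%) than in control macrophages (37.6%).

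Outside macrophages C1q was a small part of the myeloid RNA. Myeloid cells that fitted no subset gave 103 CPM of summed C1q in the knockout library and 306 CPM in the control library (ratio 0.337, 0.295 to 0.384). Here 1 cell held 34.8% of the knockout UMIs. Monocyte-gated cells gave 37.0 CPM in the knockout and 68.8 CPM in the control library, and a single cell held 43.3% of the knockout and 51.7% of the control UMIs. Over the whole myeloid gate the sum was 679.5 CPM in knockout and 1195 CPM in control cells (ratio 0.568, 0.547 to 0.590). Macrophage-gated cells were 81 of 553 knockout and 98 of 531 control myeloid cells, so this total follows the mix of cells as well as the level per cell. In endothelial, glial, mesenchymal and mural gates the sum lay between 4.89 and 9.35 CPM. Mesenchymal-gated cells had 25 C1q UMIs spread over 25 cells in the knockout and 62 over 57 cells in the control library, and endothelial-gated cells 5 over 5 and 47 over 36. Lymphoid-gated cells, which should lack C1q, gave 14.2 CPM in the knockout and 11.9 CPM in the control library on 3 UMIs each, so the levels in these 4 gates are read as background.

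C3, the central component of the cascade, was found most often in monocyte-gated cells. They held 246 of 345 C3 UMIs in the knockout library and 149 of 326 in the control library. The level was 152 CPM (133 to 172) in 165 knockout monocyte-gated cells and 117.8 CPM (99.6 to 138) in 88 control cells, a ratio of 1.29 (1.05 to 1.59). C3 had a UMI in 99 of 165 knockout and 44 of 88 control monocyte-gated cells, and in 28.8% and 21.6% after thinning each cell to 2000 UMIs. Neutrophil-gated cells had 86.4 CPM in the knockout and 74.5 CPM in the control library on 13 and 9 UMIs. Macrophage-gated cells had 2 C3 UMIs in the knockout and 14 in the control library, or 4.33 and 12.2 CPM, so among myeloid cells C3 was low where C1q was high.

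Over all myeloid cells C3 was 59.2 CPM in knockout and 35.6 CPM in control cells (ratio 1.67, 1.42 to 1.96). Monocyte-gated cells were 165 of 553 knockout and 88 of 531 control myeloid cells, and the ratio inside that gate was the smaller 1.29. Clusters 5, 6 and 7 matched the monocyte list best. Cluster 6 was led by Hist1h2ap, Hist1h2ae and Ube2c, and cluster 7 by Cd209b, Cd209c and Slamf7. The monocyte gate took 9 of 31 knockout and 6 of 41 control cells of cluster 6. Of cluster 7 it took 7 of 35 knockout and 9 of 90 control cells. Over all cells of clusters 5, 6 and 7, including those of other gates, the C3 ratio was 1.81 (1.49 to 2.20), 2.22 (1.25 to 3.96) and 0.247 (0.00600 to 1.53). The last rested on 1 knockout and 22 control UMIs. Mesenchymal-gated cells gave 10 C3 UMIs in each library, 3.34 CPM in the knockout and 1.28 CPM in the control library (ratio 2.60, 0.972 to 6.96). Cluster 2 held 174 of 362 knockout and 23 of 588 control cells of this gate, and 7 of the 10 knockout and 4 of the 10 control C3 UMIs. Within it C3 was 4.65 CPM in knockout and 16.7 CPM in control cells (ratio 0.279, 0.0710 to 1.30), and without it the ratio was 2.53 (0.409 to 11.8). On 1 knockout and 4 control UMIs after thinning, the ratio of the gate was 0.419. C3 had a UMI in 2.49% of knockout and 1.36% of control mesenchymal-gated cells, and in 0 of 31 knockout and 0 of 29 control lymphoid-gated cells. The lymphoid upper limits, 17.5 CPM in the knockout and 14.7 CPM in the control library, lie above the mesenchymal levels. Lymphoid-gated cells therefore cannot give a background for C3. Endothelial-gated cells had 2 C3 UMIs in 139 knockout cells, or 1.96 CPM (0.237 to 7.07). They had 0 in 405 control cells, where the upper limit of the level was 0.707 CPM.

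C3ar1, the receptor for C3a, was highest in macrophages and near equal between libraries. It measured 275 CPM (229 to 327) in knockout macrophage-gated cells and 256 CPM (228 to 287) in control cells, a ratio of 1.07 (0.864 to 1.33). It was seen in 64.2% of knockout and 77.6% of control macrophages, and in 39.5% and 33.0% after thinning. Monocyte-gated cells had 22.2 CPM in the knockout and 20.6 CPM in the control library. Neutrophil-gated cells had 0 UMIs in both libraries, where 3 counts would be 19.9 CPM in the knockout and 24.8 CPM in the control library. Dendritic-gated cells had 35.8 CPM in the knockout and 12.5 CPM in the control library on 22 and 18 UMIs (ratio 2.87, 1.47 to 5.68), with 40.9% of the knockout UMIs in 1 cell. After thinning that ratio was 0.346, on 1 knockout and 4 control UMIs. Over the myeloid gate C3ar1 was 52.7 CPM in knockout and 57.3 CPM in control cells (ratio 0.920, 0.793 to 1.07).

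C5ar1, the receptor for C5a, was highest in neutrophils, lower in macrophages and lowest of these in monocytes. Neutrophil-gated cells had 758 CPM (625 to 911) in the knockout and 861 CPM (704 to 1044) in the control library, a ratio of 0.880 (0.669 to 1.16). Macrophage-gated cells had 171 CPM in the knockout and 128 CPM in the control library, a ratio of 1.34 (1.01 to 1.77), which was 0.933 (0.684 to 1.27) in cluster 1 alone. Monocyte-gated cells had 58.0 CPM (46.8 to 70.9) in the knockout and 15.8 CPM (9.66 to 24.4) in the control library, a ratio of 3.67 (2.24 to 6.27). The intervals of the 3 gates do not overlap within either library. C5ar1 had a UMI in 46 of 165 knockout and 15 of 88 control monocyte-gated cells, or 11.5% and 4.55% after thinning.

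Neutrophil markers were also higher in knockout monocyte-gated cells. The 8 neutrophil markers summed to 6214 CPM in knockout and 442 CPM in control monocyte-gated cells, with 3 of 4 counted markers higher past 1.5-fold and 0 lower. At least 3 of these markers were seen in 43 of 165 knockout cells (26.1%) and 8 of 88 control cells (9.09%), which held 43 of 94 knockout and 5 of 20 control C5ar1 UMIs. Without those cells the ratio was 3.29 (1.82 to 6.31), and without Chil3-positive cells it was 3.35 (1.89 to 6.26). With double the margin between marker lists it was 0.903 (0.360 to 2.46), on 15 knockout and 8 control UMIs. Of 253 monocyte-gated cells, 119 lay near the limit of the gate. Of the 5 members counted in the monocyte gate, C5ar1 was higher and C1qb and C1qc were lower past 1.5-fold, against 9.18% of all genes higher and 14.4% lower, or 23.6% in either direction. C1qb there was 22.8 CPM in knockout and 45.9 CPM in control cells, and C1qc was 6.17 and 19.0 CPM, both with a large part in 1 cell.

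Over the myeloid gate C5ar1 was 59.8 CPM in knockout and 38.4 CPM in control cells (ratio 1.56, 1.33 to 1.82). Of 7 members counted there, C3 and C5ar1 were higher and C1qa and C1qb lower past 1.5-fold, against 9.54% and 10.6% of all genes, or 20.1% in either direction. The few C5ar1 UMIs in the mesenchymal gate, 2 in the knockout and 17 in the control library, sat beside a neutrophil marker sum of 77.7 CPM in knockout and 664 CPM in control cells. Of the 17 control UMIs, 14 lay in 4 cells with at least 3 neutrophil markers.

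**Figure D3:**
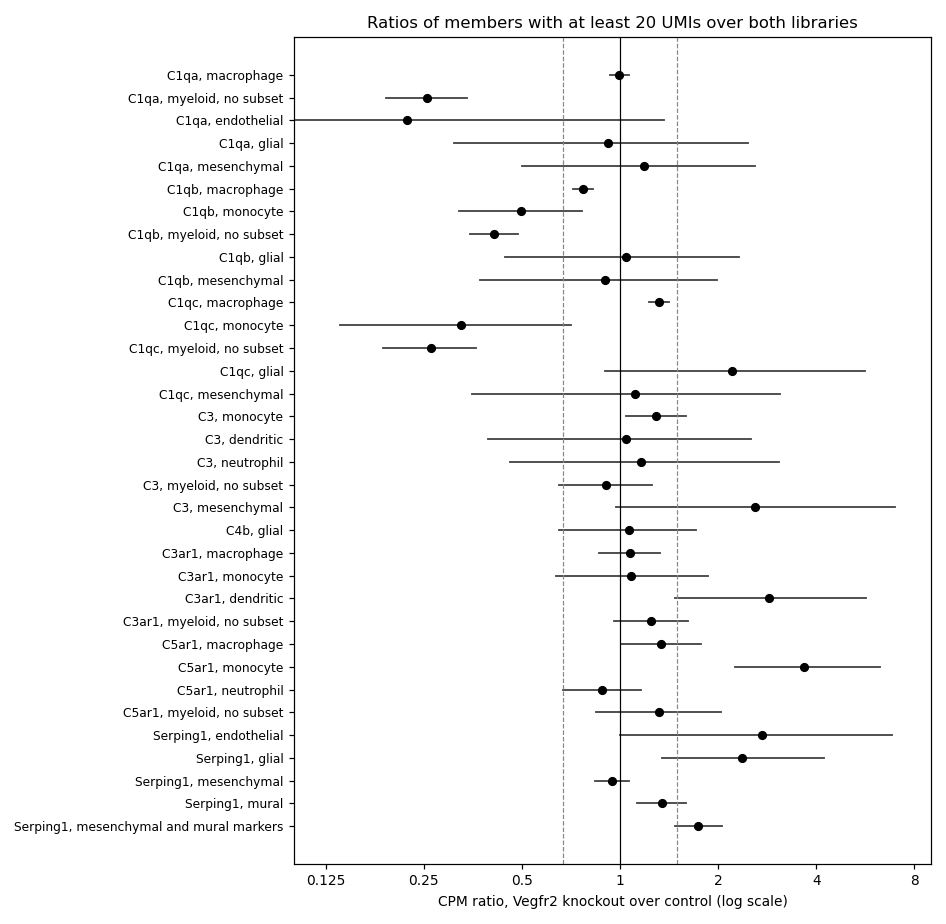
Knockout over control CPM ratio (log scale) of each member and gate holding 20 or more UMIs in sum, with exact 95% intervals for counting error; dashed lines mark 1.5-fold either way. C5ar1 in monocyte-gated cells has a ratio of 3.67, while C1qa, C3ar1 and Serping1 in macrophage-gated or mesenchymal-gated cells lie near 1.

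Serping1 was the member of stromal cells. In mesenchymal-gated cells it measured 123 CPM (111 to 137) in 362 knockout cells and 131 CPM (123 to 139) in 588 control cells, a ratio of 0.944 (0.836 to 1.06). Its per-cell median was 0.913 UMIs per 10000 in knockout and 0.922 in control cells, and 23.0% of knockout and 22.9% of control cells had a UMI after thinning. The gate drew on different clusters, with 174 of 362 knockout but 23 of 588 control cells in cluster 2 and 121 of 362 knockout but 251 of 588 control cells in cluster 3. Without cluster 2 the ratio was 1.01 (0.861 to 1.17). Of 5 members counted in the mesenchymal gate only C3 passed 1.5-fold, against 11.3% of all genes higher and 13.3% lower.

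Serping1 was higher in the knockout library over the mural gate as a whole, which takes in the pericytes and smooth muscle around vessels. Mural-gated cells had 341 CPM (297 to 389) in the knockout and 254 CPM (229 to 281) in the control library, a ratio of 1.34 (1.13 to 1.59). Cells with both mesenchymal and mural markers had 353 CPM in the knockout and 203 CPM in the control library, a ratio of 1.74 (1.47 to 2.05). In mural-gated cells Serping1 had a UMI in 79.8% of knockout and 77.3% of control cells, and in 52.4% and 29.8% after thinning. One knockout cell held 11.9% of the knockout UMIs, and without the highest cell of each library the ratio was 1.24 (1.04 to 1.49). Serping1, the only member counted in the mural gate, did not pass 1.5-fold, against 28.4% of all genes past it in either direction. Of 222 mural-gated cells, 154 lay near the limit of the gate.

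The ratio differed between the mural clusters, a difference that was not tested. Cluster 8, led by Spp1, Steap4 and Higd1b with the pericyte markers Kcnj8 and Abcc9 among its 10 leading genes, had 391 CPM (332 to 458) in 46 knockout cells and 154 CPM (129 to 184) in 84 control cells, a ratio of 2.53 (1.99 to 3.22). It carried 62.5% of mural beside 56.2% of mesenchymal markers, and the mural gate took 18 of its 46 knockout and 20 of its 84 control cells. Within cluster 8 the ratio was 3.09 (1.97 to 4.95) in mural-gated cells, 3.57 (2.47 to 5.22) in 24 knockout and 48 control cells with both marker sets, and 0.866 (0.420 to 1.65) in 4 knockout and 14 control mesenchymal-gated cells. Cluster 12, led by the smooth muscle gene Myh11, had 329 CPM (293 to 367) in 121 knockout and 254 CPM (235 to 274) in 192 control cells, a ratio of 1.29 (1.13 to 1.48). Within cluster 12 the ratio was 1.13 (0.932 to 1.37) in 76 knockout and 107 control mural-gated cells, an interval that includes 1. It was 1.48 (1.22 to 1.79) in 45 knockout and 83 control cells with both marker sets. The 4 largest mesenchymal clusters lay between 102.5 and 132 CPM in the knockout and between 99.98 and 148 CPM in the control library, and their intervals overlapped between libraries. Dissociation stress genes were higher in the mural gate too, 9 of 9 past 1.5-fold beside 14.1% of all genes higher. Their sum there was 7220 CPM in knockout and 2907 CPM in control cells, with Fos at 1587 and 468 CPM. In the mesenchymal gate, where the Serping1 ratio was 0.944, 7 of 9 were higher beside 11.3% of all genes. Their sum in that gate was 4368 CPM in knockout and 2732 CPM in control cells, and 4523 and 2315 CPM in cells with both marker sets. The mural marker list summed to 36942 CPM in knockout and 35392 CPM in control cells. The part of the stress and mural marker genes in the Serping1 result was not tested.

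**Figure D4:**
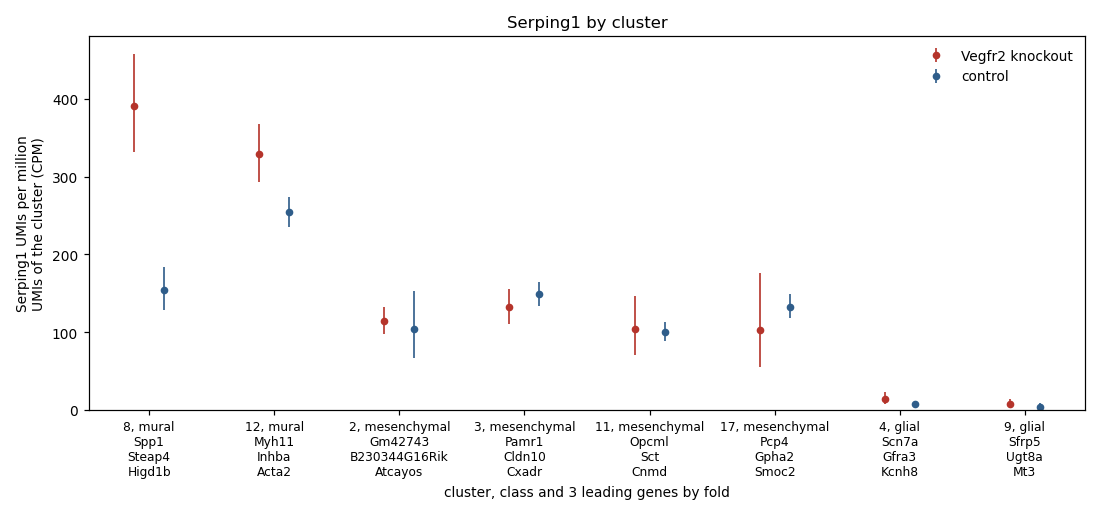
Serping1 CPM of selected mural, mesenchymal and glial clusters, Vegfr2 knockout left and control right, with exact 95% Poisson intervals. Cluster 8 shows 391 CPM in the knockout and 154 CPM in the control library, whereas the intervals of each mesenchymal cluster shown overlap.

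In endothelial and glial gates Serping1 was far lower than in mural cells. Glial-gated cells had 9.37 CPM (6.41 to 13.2) in the knockout and 3.96 CPM (2.51 to 5.94) in the control library, a ratio of 2.37 (1.34 to 4.24) on 32 and 23 UMIs. It was seen in 7.36% of knockout and 4.63% of control glial cells. Endothelial-gated cells had 7.83 CPM (3.38 to 15.4) in the knockout and 2.87 CPM (1.61 to 4.74) in the control library on 8 and 15 UMIs, a ratio of 2.73 (1.00 to 6.85), which was 0.877 on 1 knockout and 4 control UMIs after thinning. Myeloid-gated cells, with medians of 9578 UMIs in knockout and 15718 in control cells, had Serping1 in 1.27% and 1.32% of cells. In the endothelial gate 6 of 8 counted mesenchymal markers were higher past 1.5-fold, at 339 CPM in knockout and 225 CPM in control cells in sum. In the glial gate mesenchymal markers summed to 5802 CPM in knockout and 5800 CPM in control cells, and mural markers to 543 and 622 CPM. The part of RNA from other cells was not tested. Of 5 members counted in the glial gate, Serping1 was higher past 1.5-fold and so was C1qc, on 13 knockout and 10 control UMIs, against 10.2% of all genes higher. Of 2 members counted in the endothelial gate, Serping1 was higher and C1qa, with 1 knockout and 23 control UMIs, lower, against 11.8% and 15.1% of all genes, or 26.9% in either direction.

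C4b, the substrate of C1s, was rare, with 48 UMIs in all knockout and 76 in all control cells. Glial-gated cells held 30 of the 48 knockout and 48 of the 76 control UMIs, at 8.78 CPM (5.93 to 12.5) in the knockout and 8.26 CPM (6.09 to 10.95) in the control library, a ratio of 1.06 (0.650 to 1.71). It was seen in 19 of 367 knockout and 28 of 432 control glial cells. Cluster 4, glial cells led by Scn7a, Gfra3 and Kcnh8, had 23.4 CPM (15.2 to 34.6) in the knockout and 16.4 CPM (11.7 to 22.5) in the control library, on 25 and 39 UMIs. Macrophage-gated cells had 6 C4b UMIs in the knockout and 12 in the control library, or 12.99 and 10.43 CPM, with intervals of 4.77 to 28.3 and 5.39 to 18.2 CPM that overlap those of glial cells. Mesenchymal-gated cells had 0 in the knockout, where 3 counts would be 1.00 CPM, and 7 in the control library. C4b has a near-identical paralog, C4a, which was not analysed here, so reads of shared sequence make the C4b counts uncertain.

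The other 49 complement genes showed which further steps of the cascade were transcribed in the pulp. Of 13 initiation genes besides C1q and C4b, 5 had fewer than 20 UMIs over all kept cells, while the proteases C1s1 and C1ra, which travel with C1q, were stromal. C1s1 measured 46.0 CPM in knockout and 54.4 CPM in control mesenchymal-gated cells, and 254 and 197 CPM in mural-gated cells. C1ra measured 22.0 CPM in knockout and 29.7 CPM in control mesenchymal-gated cells. The subunits of C1q and the proteases that join them thus came from different gates. Colec12, a scavenger collectin, was lower in knockout mesenchymal-gated cells, at 309 CPM against 488 CPM in control cells (ratio 0.633, 0.589 to 0.681). Masp1, a lectin pathway protease, was higher there, at 11.01 CPM in knockout and 1.92 CPM in control cells on 33 and 15 UMIs (ratio 5.72, 3.02 to 11.3). Cluster 2 held 174 of 362 knockout and 23 of 588 control cells of this gate. Neither ratio was split by cluster, so the mix of cells and the level per cell cannot be told apart.

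The alternative and terminal pathways were uneven. Cfp (properdin), which stabilises the alternative convertase, was myeloid, at 229.5 CPM in knockout and 261 CPM in control cells. Cfd had 1 UMI and Cfb 42 over all kept cells. Of the 7 terminal genes, 6 had fewer than 20 UMIs, with 0 for C7, C8a and C8b and 2 for Hc, the gene of C5, whereas C8g had 76.

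Among soluble regulators Clu (clusterin), which binds terminal complexes, was 160 CPM in knockout and 33.9 CPM in control endothelial-gated cells (ratio 4.71, 3.78 to 5.86), with 15.3% of the knockout and 10.2% of the control UMIs in 1 cell. Cluster 13, led by the arterial gene Gja5, held 151 of 163 knockout and 89 of 177 control Clu UMIs of this gate, and there the ratio was 3.68 (2.81 to 4.83). In clusters 15 and 18 it was 0.925 (0.383 to 1.94) and 0.889 (0.224 to 2.59). In mesenchymal-gated cells it was 231.5 CPM in knockout and 231.7 CPM in control cells.

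Of the membrane regulators named here, Cd55 was higher past 1.5-fold in the glial and endothelial gates, Cd59a in the glial gate, and Cr1l in neither. Cd46 was higher past 1.5-fold in the glial and lower in the endothelial gate, on few UMIs and with intervals that include 1. Cd59a, which blocks the final pore, was 143 CPM in knockout and 84.0 CPM in control glial cells (ratio 1.698, 1.49 to 1.93). Cd55, which speeds convertase decay, was 51.9 CPM in knockout and 24.1 CPM in control endothelial-gated cells (ratio 2.15, 1.53 to 2.99), and 14.3 and 7.57 CPM in glial cells (ratio 1.89, 1.24 to 2.91). Cr1l (Crry), a regulator of C3 convertases in rodents, was near equal, with 44.4 CPM in knockout and 48.9 CPM in control mesenchymal-gated cells and 130 and 123 CPM in endothelial-gated cells. Cd46, a cofactor for C3b cleavage, had 1 UMI in knockout and 28 in control endothelial-gated cells (ratio 0.183, 0.00446 to 1.104), and 20 and 17 UMIs in glial cells (ratio 2.001, 0.996 to 4.07). Within cluster 18 of the endothelial gate, led by Selp and Vwf, Cd55 was 139.6 CPM in 62 knockout and 59.9 CPM in 156 control cells (ratio 2.33, 1.60 to 3.34). Dissociation stress genes summed to 5792 CPM in knockout and 3370 CPM in control endothelial-gated cells, and to 1875 and 1058 CPM in glial cells, and their part in these differences was not tested.

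Of the remaining receptors, C5ar2, a second C5a receptor, was 47.6 CPM in knockout and 23.5 CPM in control macrophages (ratio 2.03, 1.102 to 3.70). Vsig4, a macrophage receptor for C3 fragments, had 22 UMIs in knockout and 2 in control macrophages (ratio 27.4, 6.74 to 240), with 45.5% of the knockout UMIs in 1 cell. The integrin chain Itgam, part of complement receptor 3, was 266 CPM in knockout and 259 CPM in control monocyte-gated cells and 156 and 148 CPM in macrophages. Calr (calreticulin), a chaperone that can bind C1q, was lower in 4 gates, at 294 CPM in knockout and 536 CPM in control macrophages, 367 and 589 CPM in glia, 440 and 722 CPM in mesenchymal-gated cells and 280 and 472 CPM in mural-gated cells. Lrp1, a large endocytic receptor, had 1 UMI in knockout and 20 in control endothelial-gated cells. Cd93, a surface protein of endothelium, was 1407 CPM in knockout and 1069 CPM in control endothelial-gated cells.

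Counted over the list, the share of other complement genes past 1.5-fold was above that of all genes in the glial, endothelial, myeloid and mesenchymal gates and near or below it in the others. In macrophages 4 of 16 counted genes were higher and 1 lower, against 21.9% and 12.2% of all genes, with a median log2 ratio of -0.20 beside 0.15 over all genes. In mesenchymal-gated cells 3 of 20 were higher and 4 lower, against 11.3% and 13.3% of all genes, with a median of 0.02 beside -0.05. In endothelial-gated cells 5 of 14 were higher and 2 lower, against 11.8% and 15.1%, with a median of 0.14 beside -0.02. In myeloid-gated cells 3 of 20 were higher and 4 lower, against 9.54% and 10.6%, with a median of -0.22 beside -0.09. In glial cells 4 of 14 were higher and 3 lower, against 10.2% and 9.31% of all genes, with a median of 0.15 beside 0.01. In mural-gated cells 1 of 9 was higher and 2 were lower, against 28.4% past it in either direction, and in monocyte-gated cells 2 of 13 were higher and 1 lower, against 23.6%. In dendritic-gated cells 0 of 9 were higher and 1 lower, against 28.5% of all genes past 1.5-fold in either direction, and in neutrophil-gated cells 0 of 3 passed, against 41.9%. The excess of the pooled myeloid gate was not seen in its 4 subsets, whose mix differed between libraries. Monocyte-gated cells, for example, were 165 of 553 knockout and 88 of 531 control myeloid cells. With counts this small, 1 gene moves a share by several percentage points, so the shares are description only.

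**Figure D5:**
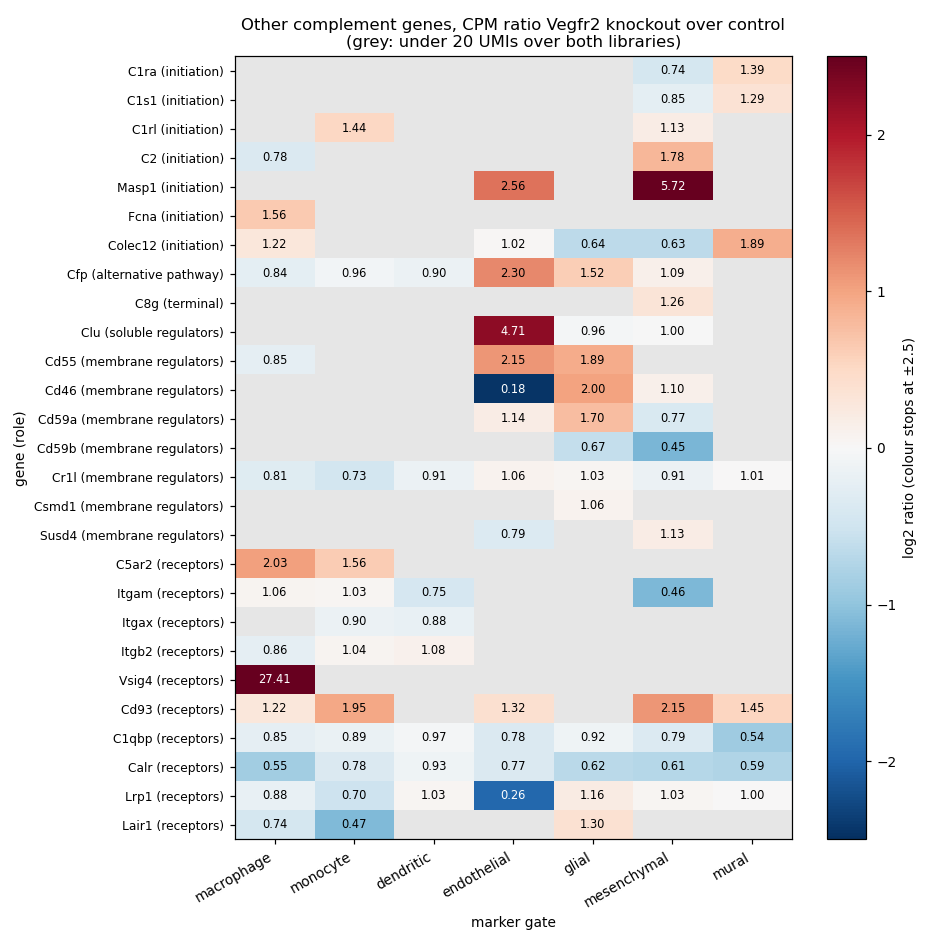
Knockout over control CPM ratio of other complement genes holding 20 or more UMIs in a gate, as numbers and as log2 colour, by role and gate. Clu in endothelial-gated cells (4.71) and Masp1 in mesenchymal-gated cells (5.72) are higher, Vsig4 in macrophages (27.4) rests on 22 knockout and 2 control UMIs, and Calr is below 1 in all 7 gates shown.

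Across 18 profiles, 9 gates in each of 2 libraries that share depth and software with their genotype, the genes whose log2(CPM + 1) was most like each member were named as a description. For C1qa these were Snx2 (r = 0.97), Siglec1, Ccl24, Folr2 and Cd209f, and for C1qb Ms4a7 (0.96), Siglec1, Ms4a4a, Ccl7 and C1qc. For C1qc they were Ms4a7 (0.96), Siglec1, Ccl24, Folr2 and C1qb. C3 was nearest to AI839979 (0.97), Mcemp1, Gm5150, Gm9733 and Gpr141. C3ar1 was nearest to Tbxas1 (0.99), Serpinb8, Cd163, Ticam2 and Aif1, and C5ar1 to Tlr6 (0.95), Fpr1, Hk3, Csf3r and C5ar2. Serping1 was nearest to Ednra (0.95), Ror1, Frk, Prrx1 and Speg, and C4b to Cela1 (0.94), Arhgap19, Scamp5, Wwp1 and Gatm. Of the genes named, Folr2, Ms4a7, Cd163, Csf3r, Aif1 and Prrx1 are themselves gating markers, so their likeness is partly built in by the gates.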

How the data were processed

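The 10x Chromium 3′ v3.1 libraries of dissociated, propidium iodide-negative pulp cells numbered 2, with 1 per genotype. The deposited values were raw UMI counts per gene and barcode in filtered matrices. Per the submitters' processing notes they were made with Cell Ranger 6.0.1 on mm10, and per the file headers Cell Ranger 6.0.1 wrote the knockout and 5.0.0 the control matrix. The libraries held 17277162 UMIs in 2563 knockout barcodes and 35918862 UMIs in 3487 control barcodes, of which 3 barcodes were shared. Barcodes with at least 500 genes, 1000 UMIs and at most 10% mitochondrial UMIs were kept, and 24 doublets (0.598%) called by Scrublet in scanpy 1.11.5 were removed, 4 from the knockout and 20 from the control library. Doublets that it missed may remain.

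A cell was gated when at least 3 markers of a list had a UMI and the share of that list's markers was at least 1.5 times that of the next list, and cells past less than 2 times were called near the limit. This scoring rule was set after the data were seen. Leiden clusters (2000 variable genes without complement genes, 30 components, 15 neighbours, resolution 1) served as an alternative. UMIs were summed per gate and library and scaled to CPM. Ratios carry exact conditional Poisson intervals and shares Clopper-Pearson intervals. A difference was called past 1.5-fold with at least 20 UMIs over both libraries. Shares were also computed after thinning to 2000 UMIs per cell. All 8 members are named, with the other complement genes of highest CPM in each role and the 5 genes most alike. Further complement genes were named after their values were seen, and 1 gene of the list is counted but not reported here. The intervals were run on simulated Poisson counts, which checks their arithmetic only. The simulation holds no clumping of UMIs in single cells, so it cannot show how the intervals cover the real counts. RefSeq promoters matched 5 of 8 members. Members and lists were chosen with earlier results of these data known. Tools were Python 3.11.15, numpy 2.4.6, scipy 1.17.1, pandas 2.3.3 and matplotlib 3.10.9.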

Additional observations from a re-analysis of the deposited data

Results flagged for a closer look

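C1qc pointed in opposite directions in separate myeloid gates, with a knockout over control ratio of 1.32 in macrophage-gated cells and 0.325 in monocyte-gated cells, the second on 10 knockout and 24 control UMIs. The difference between the gates was not tested. C1qa in macrophage-gated cells had a ratio of 1.1 among Xist-positive cells and 0.813 among Y-positive cells, with intervals on opposite sides of 1. C1qc over the myeloid gate had a ratio of 0.578 among Xist-positive and 1.28 among Y-positive cells, also untested.

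The barcodes left out by the filters, 884 from the knockout and 1178 from the control library, held complement UMIs as well. There C1qc was 207 CPM in the knockout and 134 CPM in the control library (ratio 1.54), C3 was 28.2 and 7.85 CPM (ratio 3.59), C3ar1 was 42.7 and 20.4 CPM (ratio 2.09) and C5ar1 was 19.1 and 9.19 CPM (ratio 2.08). These barcodes were not gated, so their make-up of cell types was not examined.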

How the results depend on the processing

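Of 412 values of 36 ratios under the alternatives, 320 stayed inside the counting interval of the reported ratio, 84 moved outside it and 8 turned a called ratio to the other side of 1. No paired analysis was possible because each genotype has 1 library, and no replicate could be left out. The summed C1q ratio of macrophage-gated cells, 0.999, was 1.099 with a stricter cell filter, 0.928 with no filter, 0.831 with classes by clustering, 0.861 with double the margin, 0.940 with each cell counted equally, 0.903 with median of ratios scaling, 1.05 among Xist-positive cells alone, 0.871 among Y-positive cells alone and 0.829 in the largest cluster. C5ar1 in the myeloid gate, 1.56, was 1.26 after thinning and 1.96 in Y-positive cells. C3 in the mesenchymal gate, 2.60, was 7.35 with the stricter filter, on 3 UMIs in each library, and 0.419 after thinning. Serping1 was 0.830 in Y-positive mesenchymal-gated cells and 0.877 in thinned endothelial-gated cells. Other called ratios that turned were C1qb in monocyte-gated cells, 1.41 after thinning and 7.74 in Y-positive cells, C1qc in Y-positive monocyte-gated cells (1.14), C1qc in thinned glial cells (0), C5ar1 in monocyte-gated cells with double the margin (0.903) and C3ar1 in thinned dendritic-gated cells (0.346). Thinned values rest on few UMIs by construction, and the cause of the others was not tested. The ratios of C3ar1 in the myeloid gate (0.817 to 1.03) and Serping1 in the glial gate (1.93 to 4.21) stayed inside their intervals under each alternative run. C4b in the mesenchymal gate ranged over 0 to 1.66 on few UMIs. The cluster, neutrophil marker and Chil3 alternatives were chosen after seeing the data. Counts of other complement genes past 1.5-fold followed the UMI minimum, and 9 of 36 stayed within 1.5 times. In glial-gated cells 4 were higher as reported, 10 with a minimum of 2 UMIs and 2 with a minimum of 50. Depth limits C4b everywhere and all members outside their main gates.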

Other observations

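Both anaphylatoxin receptors were often seen in the same macrophage. C3ar1 and C5ar1 both had a UMI in 31 of 81 knockout and 43 of 98 control macrophage-gated cells, C3ar1 alone in 21 and 33, and C5ar1 alone in 12 and 9. In monocyte-gated cells C3 and C5ar1 both had a UMI in 37 of 165 knockout and 11 of 88 control cells. C3 with any C1q subunit was seen in 2 knockout and 12 control macrophages, and in 7 knockout and 6 control monocyte-gated cells.

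Among control cells that no gate took, 1 cell held 92.7% of 164 C1q UMIs. Lair1, an inhibitory receptor that can bind C1q, was 25.9 CPM in knockout and 55.3 CPM in control monocyte-gated cells (ratio 0.468, 0.311 to 0.696), with 26.2% of the knockout and 27.1% of the control UMIs in 1 cell.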
